A study of Mus musculus with 8 samples.

Results

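The 34 genes described here make the proteins that remove peroxides and superoxide, make and recycle glutathione, reduce thioredoxin, repair oxidised methionine and bind metals. They were taken by gene symbol and not by a measured value, though the list was chosen with earlier results of these data known. Each of the 34 was found among the 55213 genes of the count tables. All 34 had at least 10 counts over the libraries and were tested, as were 26900 genes in all. Each of the 8 libraries holds RNA from the whole retina of 1 germ-free (GF) male C57B1/6 mouse, an animal raised without any microbes. In the GF-ND group, 4 mice ate a normal diet throughout, and in the GF-HFD group 4 mice ate a high-fat diet with 23% saturated fat. The diets ran for 8 weeks from 7 weeks of age, and retinas were taken at 15 weeks. GF-ND mice carry the numbers 9, 10, 11 and 12 and GF-HFD mice the numbers 13, 15, 16 and 19, and values for single mice are given in that order. The comparison asks which antioxidant transcripts differ with the diet in the absence of gut microbes, and there is no group with microbes among these libraries.

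NRF2, encoded by Nfe2l2, is a transcription factor that is held in the cytoplasm and marked for destruction by Keap1. When electrophiles or oxidants modify Keap1, NRF2 reaches the nucleus and turns on genes for glutathione synthesis, thioredoxin and quinone reduction. Photoreceptors use much oxygen and hold highly unsaturated lipids, and glia and the lens have glutathione systems of their own. Metallothioneins are small proteins rich in cysteine that bind zinc and copper, and metals and glucocorticoids turn on Mt1 and Mt2.

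The libraries held 39258006 to 44357518 counts. Levels are given in CPM (counts per 1000000 after TMM scaling, an adjustment of library size to the bulk of the genes), and a list of 18 rod genes had a mean log2 CPM of 10.5 to 11.5. Some libraries also held transcripts of tissues around the retina. A list of 20 lens genes took 6.93% of the counts of mouse 11 (GF-ND), 1.20% of those of mouse 19 (GF-HFD), and 0.0186 to 0.169% in the other 6. Optc, which encodes opticin of the ciliary body and iris, was at 0.627 to 1.003 CPM in mice 9, 12 and 13, at 18.2 to 21.7 CPM in mice 10, 11 and 15, and at 54.3 and 76.4 CPM in mice 16 and 19. A pigment epithelium list had a mean log2 CPM of 4.74 to 5.31 in mice 11, 16 and 19 and of 0.30 to 2.74 elsewhere. Optc was singled out after its values were seen.

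Glutathione peroxidase 4 (Gpx4), the selenoenzyme that reduces lipid peroxides inside membranes, had the highest level of the 34 per exon length. Its mean was 169 RPKM over the 8 mice, where RPKM is CPM divided by the exon length in kilobases, and it ran from 135 to 207. Next came Gpx3 at 49.8 RPKM with a range of 2.27 to 157, and the peroxiredoxin Prdx2, abundant in neurons and red blood cells, at 46.6 with a range of 36.3 to 54.8. The lowest mean belonged to Slc7a11, the transporter that brings in cystine for glutathione, at 1.85 RPKM and 0.486 to 6.44. Each gene's range overlapped that of the next gene in the order, so no neighbours in it were apart. The exon length takes all annotated exons of a gene together, 13922 bases for Slc7a11, so the order depends on the annotation. By mean CPM Slc7a11 was at 25.8, and Mt2 was the lowest of the 34 at 1.47. The spread between mice differed widely between the genes. Of the 34, 10 had a highest mouse less than 1.5 times the lowest, and 5 had one more than 5 times the lowest, namely Nqo1, Slc7a11, Gpx3, Sod3 and Gstm1.

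**Figure D1:**
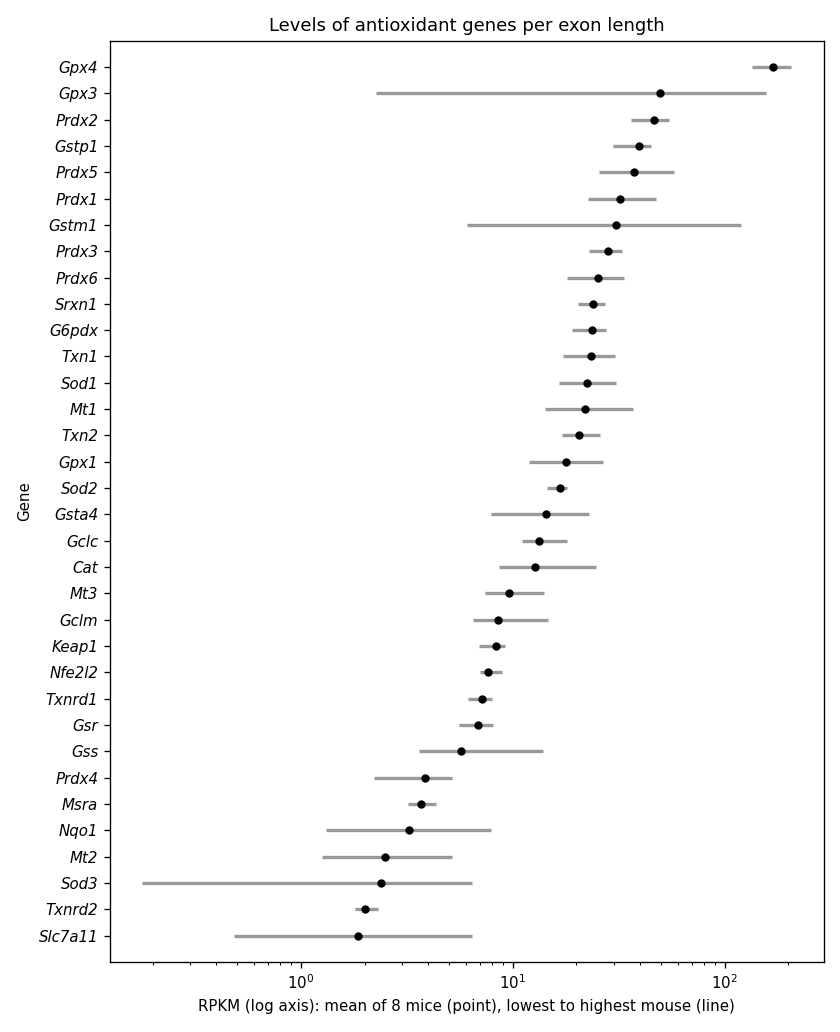
Level per exon length (x axis, RPKM, log axis) of the 34 genes (y axis), as the mean of the 8 mice (points) and the lowest to highest mouse (lines). Gpx4 is highest at 169 RPKM and Slc7a11 lowest at 1.85, and the lines of Gpx3 and Sod3 are the longest.

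Over all 8 mice, no antioxidant gene passed the test of the diet. The difference was fitted with the quasi-likelihood test of edgeR, which called 0 of the 34 and 0% of all genes at an adjusted p under 0.05, and the smallest adjusted p of a member was 0.649. Unadjusted, 1 member was higher in GF-HFD retinas at a p under 0.05 (Gsr) and 1 was lower (Gss), where 2.85% of all genes were higher and 4.53% lower at that level, 7.38% in all. The members' 2 of 34 are near that share. Fitted levels were higher in GF-HFD retinas for 25 of the 34, against 46.3% of all genes, with a median log2 fold change (GF-HFD relative to GF-ND) of 0.12 for the members and -0.03 for all genes. Every GF-HFD mouse lay above every GF-ND mouse in 2 members, Gsr and G6pdx, and the reverse held in none. Over all genes, 4.83% kept the groups apart in either direction.

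Glutathione reductase (Gsr), on chromosome 8 from 33652523 to 33698163 (GRCm38), returns oxidised glutathione to its reduced form. It was at 17.1, 15.6, 19.6 and 15.3 CPM in the GF-ND mice and at 22.2, 20.2, 20.9 and 20.2 CPM in the GF-HFD mice. The groups did not overlap, though mouse 11 came close to the lowest GF-HFD mice. The log2 fold change was 0.30 (SE 0.11, 95% interval 0.07 to 0.54) with an edgeR p of 0.017 and an adjusted p of 0.649, and the two-sided exact permutation test of log2 CPM gave 0.0286, the smallest p that 4 mice against 4 allow. Gsr overlaps the small gene Gm24727. G6pdx, on the X chromosome from 74409483 to 74429194, encodes the enzyme that supplies the NADPH which Gsr uses. It was at 70.8, 71.5, 70.3 and 58.5 CPM in the GF-ND mice and at 72.4, 84.9, 77.5 and 75.1 CPM in the GF-HFD mice. The groups again did not overlap, but the nearest mice of the diets, 10 and 13, were less than 1 CPM apart. Its log2 fold change was 0.19 (SE 0.09, adjusted p = 0.649). It overlaps Ikbkg on the other strand, and reads from the stretch that the pair share cannot be assigned between them without strand.

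Glutathione synthetase (Gss), the enzyme of the last step of glutathione synthesis, had the only p under 0.05 among the genes with a lower fitted level in GF-HFD retinas. Its levels were 25.8, 33.1, 82.7 and 28.7 CPM in GF-ND and 22.9, 21.3, 24.2 and 30.9 CPM in GF-HFD mice. GF-ND mouse 11 stood far above the others, and the other 3 GF-ND mice overlapped the GF-HFD mice. The log2 fold change was -0.78 (SE 0.34) over the 8 mice and -0.23 (SE 0.13) without mouse 11, with adjusted p-values of 0.649 and 0.316. Gss overlaps Acss2, Gssos1 and Gssos2 on the other strand.

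**Figure D2:**
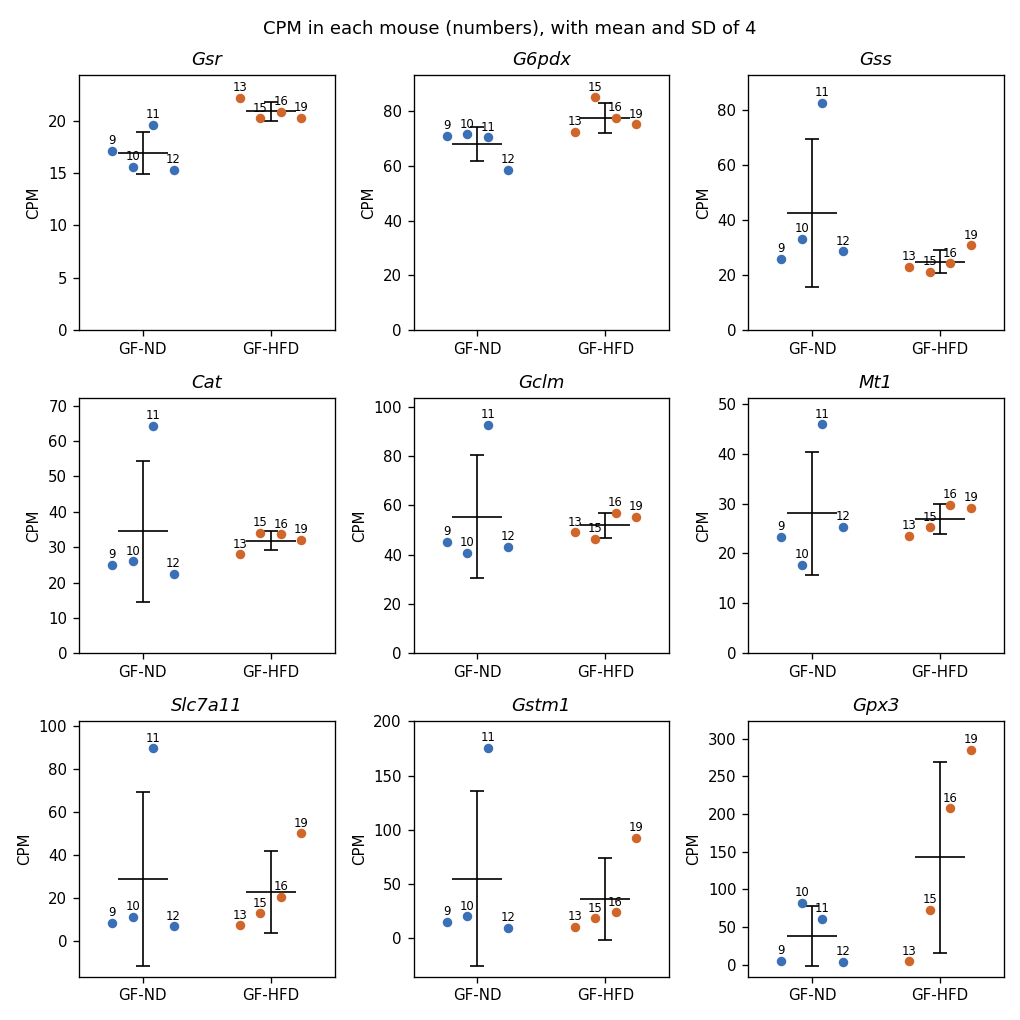
CPM (y axes) of 9 antioxidant genes in each GF-ND (blue) and GF-HFD (orange) mouse, labelled by number, with the mean and SD of 4 mice (black). Gsr and G6pdx keep the diets apart, while GF-ND mouse 11 is highest of all in Gss, Cat, Gclm, Mt1, Slc7a11 and Gstm1.

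The 2 ends of the range lay within the normal diet. GF-ND mouse 11 had the highest level of the 8 in 19 of the 34 members, against 21.0% of all genes, and was the lowest in none. GF-ND mouse 12 had the lowest level in 23 of the 34, against 15.1% of all genes, and was the highest in none. Summed over the 34 genes, the level was 2471 CPM in mouse 11 and 1442 CPM in mouse 12, the highest and lowest of the 8, with 1742 and 1696 CPM in the other GF-ND mice and 1670, 2046, 2085 and 2396 CPM in the GF-HFD mice. The sums averaged 1838 ± 442 CPM with the normal diet and 2049 ± 298 CPM with the high-fat diet (SD of 4 mice each), and the groups overlapped. Mouse 19 was the highest of the GF-HFD group in 18 members, against 26.0% of all genes, and in 13 members both mouse 11 and mouse 19 were the highest of their groups, with mouse 11 highest of all, against 8.83% of all genes. Mice 11 and 19 are the libraries with the most lens transcripts. Mouse 12 had the fewest, with Mueller glia at 7.39 log2 CPM against 7.62 to 8.24 in the others, microglia at 0.13 against 0.71 to 1.77, and the largest share of mitochondrial transcripts, 3.47% against 1.90 to 3.10%. The part of these tissues and cells in the levels was not tested. In whole-tissue RNA, fewer cells of a type and less RNA per cell cannot be told apart.

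**Figure D3:**
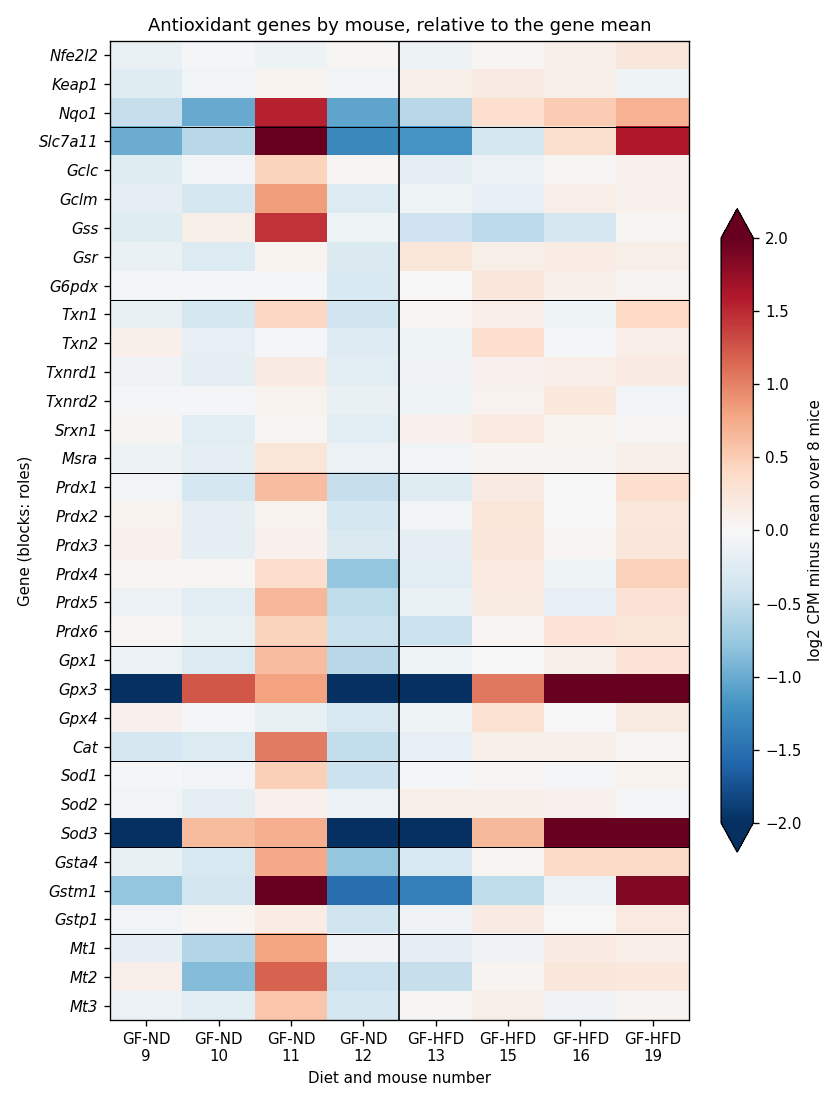
Log2 CPM of each of the 34 genes (rows, grouped by role) in each mouse (columns), minus the gene's mean over the 8 mice (colour, capped at -2 and 2). The column of GF-ND mouse 11 is mostly red and that of GF-ND mouse 12 mostly blue, and Gpx3 and Sod3 are lowest in mice 9, 12 and 13.

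Without GF-ND mouse 11, the fitted level of 33 of the 34 members was higher in the 4 GF-HFD mice than in GF-ND mice 9, 10 and 12, against 51.0% of all genes, and Gss was the exception. The median log2 fold change was 0.26 for the members and 0.01 for all genes. At an unadjusted edgeR p under 0.05, 17 members were higher and 0 lower, where 12.1% of all genes were higher and 23.0% passed in either direction. No member passed at an adjusted p under 0.05, where edgeR called 1.60% of all genes, and the smallest adjusted p of a member was 0.0575, for Cat. In 10 members every GF-HFD mouse lay above these 3 GF-ND mice, against 9.67% of all genes. They were Gclm, Gsr, G6pdx, Txn1, Txnrd1, Msra, Gpx1, Cat, Sod2 and Mt3. Leaving out mouse 11 removed the highest normal-diet value of most of these genes. Leaving out mouse 12 instead gave 17 members higher and 17 lower with a median of 0.01, so the balance of directions turned on which of these 2 mice was in the fit. With lens-rich GF-HFD mouse 19 left out beside mouse 11, 33 members had higher fitted levels, against 49.5% of all genes. Of these, 13 had an unadjusted p under 0.05, against 9.51% of all genes higher at that level, and Gss was lower at that level, against 9.75% of all genes.

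**Figure D4:**
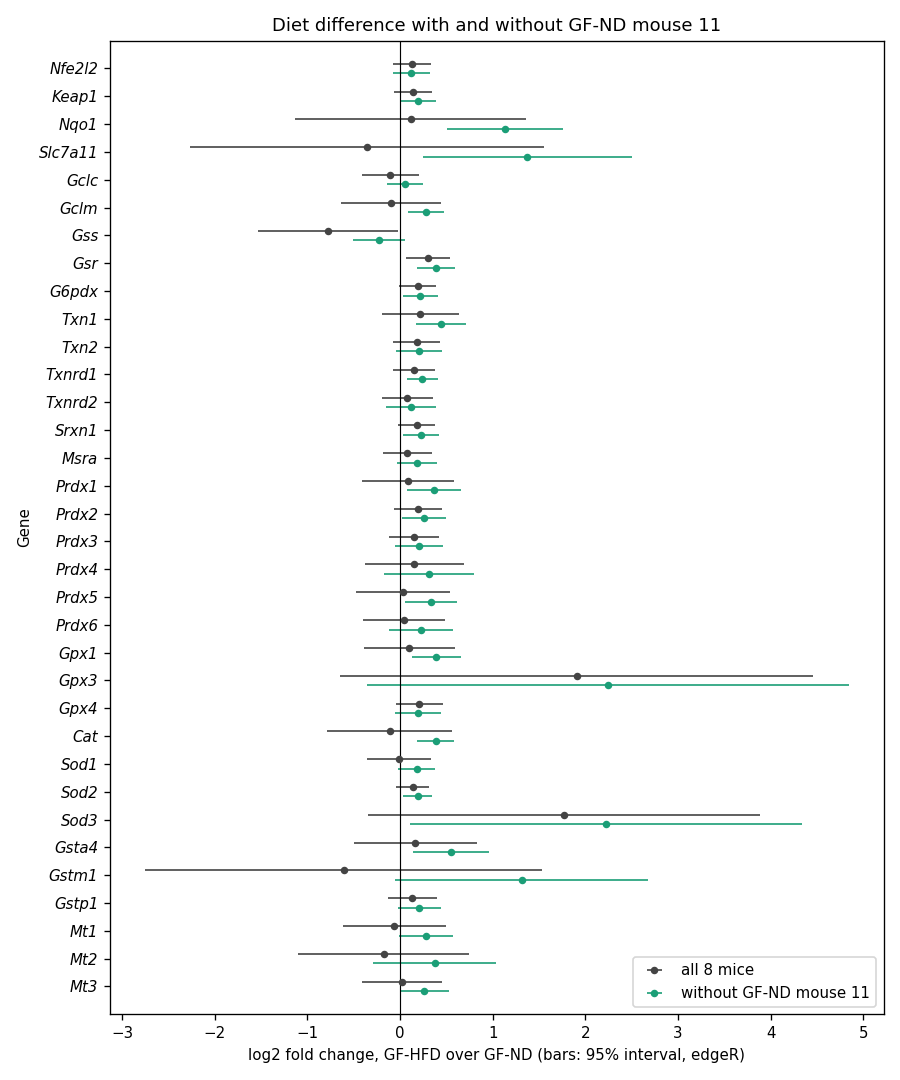
Fitted log2 ratio of the GF-HFD to the GF-ND level (x axis) with its 95% interval from edgeR for the 34 genes (y axis), from all 8 mice (grey) and without GF-ND mouse 11 (green). Without mouse 11 the intervals of Nqo1, Slc7a11, Gclm and Cat, among others, lie above 0, and the adjusted p of each of the 34 is above 0.05.

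For NRF2 itself and its inhibitor the groups overlapped, and neither had an unadjusted edgeR p under 0.05 over the 8 mice. Nfe2l2 ran from 26.5 to 29.4 CPM in GF-ND and from 27.0 to 33.9 CPM in GF-HFD mice, a log2 fold change of 0.13 (SE 0.09, 95% interval -0.08 to 0.34). Keap1 ran from 32.7 to 40.9 CPM and from 36.7 to 43.4 CPM, a log2 fold change of 0.14 (SE 0.09, 95% interval -0.07 to 0.35). Without mouse 11 the log2 fold changes were 0.12 (SE 0.09) for Nfe2l2 and 0.20 (SE 0.09, 95% interval 0.01 to 0.38) for Keap1. The edgeR p of Keap1 was then 0.041, with an adjusted p of 0.198. Nqo1, a quinone reductase and classical NRF2 target, was at 3.06, 2.09, 12.2 and 2.03 CPM in GF-ND and at 2.87, 5.34, 5.97 and 6.81 CPM in GF-HFD mice. Mouse 11 had 5.10 times the mean of the other GF-ND mice, and 3 of the 4 GF-HFD mice lay between. With mouse 11 the log2 fold change was 0.11 (SE 0.56), and without it 1.13 (SE 0.28, adjusted p = 0.0659).

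In glutathione synthesis, the cystine transporter Slc7a11 had one of the widest spreads. It was at 8.32, 11.2, 89.6 and 6.77 CPM in GF-ND and at 7.21, 12.9, 20.5 and 50.003 CPM in GF-HFD mice. The 2 highest mice were 11 and 19, those with the most lens RNA, where the lens crystallin Cryaa was at 18967 and 4648 CPM against 51.1 to 689 CPM in the rest. The log2 fold change was -0.36 (SE 0.86) with all mice, 1.37 (SE 0.51) without mouse 11 and 0.62 without mice 11 and 19. Gclc and Gclm encode the catalytic and modifier subunits of the enzyme that sets the pace of glutathione synthesis. Gclm was at 45.1, 40.7, 92.8 and 43.1 CPM in GF-ND and at 49.0, 46.5, 56.9 and 55.4 CPM in GF-HFD mice. Mouse 11 was again far above the rest, and all 4 GF-HFD mice lay above the other 3 GF-ND mice. Its log2 fold change was -0.09 (SE 0.24) with mouse 11 and 0.28 (SE 0.09, adjusted p = 0.104) without it. Gclc ran from 41.6 to 67.7 CPM and from 43.9 to 52.6 CPM, with a log2 fold change of -0.10 (SE 0.14) and of 0.06 (SE 0.09) without mouse 11.

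Fitted levels of all 6 genes of the thioredoxin system were higher with the high-fat diet, at log2 fold changes of 0.08 to 0.22, and 0 of the 6 had a p under 0.05. Thioredoxin itself (Txn1, cytosolic) was at 21.7, 18.7, 32.1 and 18.1 CPM in GF-ND and at 24.7, 26.5, 22.7 and 31.6 CPM in GF-HFD mice. Its log2 fold change of 0.22 (SE 0.19) became 0.44 (SE 0.12, adjusted p = 0.0824) without mouse 11. Its reductase Txnrd1 ran from 43.6 to 56.6 CPM in GF-ND and from 48.2 to 56.4 CPM in GF-HFD mice, and 0.15 (SE 0.10) became 0.24 (SE 0.08). The groups overlapped in both. The mitochondrial forms Txn2 and Txnrd2 had log2 fold changes of 0.18 (SE 0.11) and 0.08 (SE 0.12), and of 0.20 and 0.12 without mouse 11. Srxn1, the enzyme that restores overoxidised peroxiredoxins, ran from 57.6 to 69.7 CPM in GF-ND and from 68.3 to 77.0 CPM in GF-HFD mice, a log2 fold change of 0.18 (SE 0.09). Msra, which repairs oxidised methionine, ran from 13.8 to 18.6 CPM and from 15.2 to 17 CPM, a log2 fold change of 0.08 (SE 0.12). Without mouse 11 these were 0.22 (SE 0.09) for Srxn1 and 0.18 (SE 0.10) for Msra.

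In the 6 peroxiredoxins, which remove hydrogen peroxide with thioredoxin or glutathione, the groups overlapped and 0 had a p under 0.05. Their summed level was 360 CPM in GF-ND mouse 12 and 632 CPM in mouse 11, and 418 to 578 CPM in the GF-HFD mice. Prdx1, a cytosolic member and NRF2 target, was at 91.3, 74.5, 145.0 and 68.7 CPM in GF-ND and at 80.3, 106.0, 96.0 and 120.1 CPM in GF-HFD mice, and the groups overlapped. Its log2 fold change was 0.08 (SE 0.22), and that of Prdx5, found in mitochondria and peroxisomes, 0.03 (SE 0.23). Both were highest in mouse 11, at 1.85 and 1.92 times the mean of the other GF-ND mice. Prdx2, which is plentiful in red blood cells, had the largest log2 fold change of the 6 with all mice (0.20, SE 0.12, 95% interval -0.06 to 0.46), at 111 to 148 CPM in GF-ND and 135 to 167 CPM in GF-HFD mice. Red blood cell transcripts were also higher with the high-fat diet, with Hbb-bs, a beta globin, at 2.61 to 7.497 CPM in GF-ND and 9.25 to 22.9 CPM in GF-HFD mice and 10 of 10 measured genes of the list higher, and their part in Prdx2 was not tested. Mitochondrial Prdx3, Prdx4 of the endoplasmic reticulum and Prdx6, which acts with glutathione, had log2 fold changes of 0.15 (SE 0.12), 0.15 (SE 0.24) and 0.04 (SE 0.20). Without mouse 11, 3 of the 6 were higher at an unadjusted edgeR p under 0.05, namely Prdx1 at a log2 fold change of 0.37 (SE 0.13), Prdx5 at 0.33 (SE 0.13) and Prdx2 at 0.26 (SE 0.11), with adjusted p-values of 0.139 to 0.185. Prdx3, Prdx4 and Prdx6 were then at 0.20, 0.31 and 0.23.

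Catalase (Cat), the peroxisomal enzyme that splits hydrogen peroxide, was at 25.0, 26.0, 64.3 and 22.5 CPM in GF-ND and at 27.9, 33.98, 33.6 and 32.0 CPM in GF-HFD mice. Mouse 11 had 2.63 times the mean of the other GF-ND mice, all 3 of which lay below every GF-HFD mouse. The log2 fold change was -0.11 (SE 0.30) with all mice and 0.39 (SE 0.09, 95% interval 0.19 to 0.58, adjusted p = 0.0575) without mouse 11. Gpx1, the cytosolic glutathione peroxidase, had mouse 11 highest and mouse 12 lowest, with 38.6 CPM in mouse 11, 17.2 to 23.2 CPM in the other GF-ND mice and 23.6 to 30.5 CPM in the GF-HFD mice. Its log2 fold change was 0.10 (SE 0.22), and 0.39 (SE 0.12) without mouse 11. Gpx4 was at 307, 282, 261 and 233 CPM in GF-ND and at 274, 356, 292 and 327 CPM in GF-HFD mice. Mouse 11 was not high here, at 0.951 times the mean of the other GF-ND mice, and the log2 fold change was 0.21 (SE 0.11) with mouse 11 and 0.19 (SE 0.11) without it.

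Gpx3 and Sod3 encode the secreted glutathione peroxidase and the extracellular superoxide dismutase, and both had the largest fitted differences of the 34, with wide intervals. Gpx3, on chromosome 11 from 54902453 to 54910377, was at 5.35, 81.9, 60.8 and 4.11 CPM in GF-ND and at 4.51, 72.5, 208 and 285 CPM in GF-HFD mice. Sod3, on chromosome 5 from 52363791 to 52371418, was at 1.06, 6.85, 7.34 and 1.05 CPM and at 0.669, 6.93, 24.1 and 23.7 CPM. The mice fell into the same 3 levels as for Optc, with mice 9, 12 and 13 low, mice 10, 11 and 15 in the middle and mice 16 and 19 high. Each low and each middle set holds mice of both diets, and the high set holds GF-HFD mice only. The log2 fold changes were 1.90 (SE 1.14, 95% interval -0.64 to 4.45) for Gpx3 and 1.76 (SE 0.95, 95% interval -0.35 to 3.88) for Sod3, and the exact permutation p was 0.286 and 0.371. Without mouse 11 they were 2.24 (SE 1.18) for Gpx3 and 2.22 (SE 0.96) for Sod3. Sod3 then had an unadjusted edgeR p of 0.041 and an adjusted p of 0.197. Fibulin 1 (Fbln1), a matrix protein of fibroblasts that was chosen after its values were seen, had the same 3 levels, at 0.861 to 1.76, 31.8 to 46.4 and 111 to 144 CPM. Other genes of the 15 in the fibroblast list did not, since Ogn was highest in mouse 11 at 108 CPM and Thy1, which neurons also make, ran from 114 to 173 CPM over the 8 mice. The mean of the ciliary body and iris list had the 3 levels, at 2.74 to 3.08, 4.35 to 4.44 and 5.06 to 5.24 log2 CPM. Optc is a marker of the same tissues, so this mean is not separate evidence of the levels. The most abundant genes of that list did not have them. Aqp1 ran from 150 to 196 CPM and Mab21l1 from 120 to 144 CPM over the 8 mice, and Col9a1 was highest in mouse 10 at 63.9 CPM. Among the low mice the 1 GF-HFD mouse lay between the 2 GF-ND mice in Gpx3 and below them in Sod3. The part of tissue around the retina in these differences was not tested. Sod1, in the cytosol, ran from 65.6 to 121.8 CPM in GF-ND and from 86.2 to 92.7 CPM in GF-HFD mice, a log2 fold change of -0.01 (SE 0.16), and 0.18 (SE 0.09) without mouse 11. Mitochondrial Sod2 was the steadiest of the 34, at 160.5, 146, 177 and 155 CPM in GF-ND and 180.5, 179, 177 and 164 CPM in GF-HFD mice, with a log2 fold change of 0.14 (SE 0.08), and 0.19 (SE 0.07) without mouse 11.

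**Figure D5:**
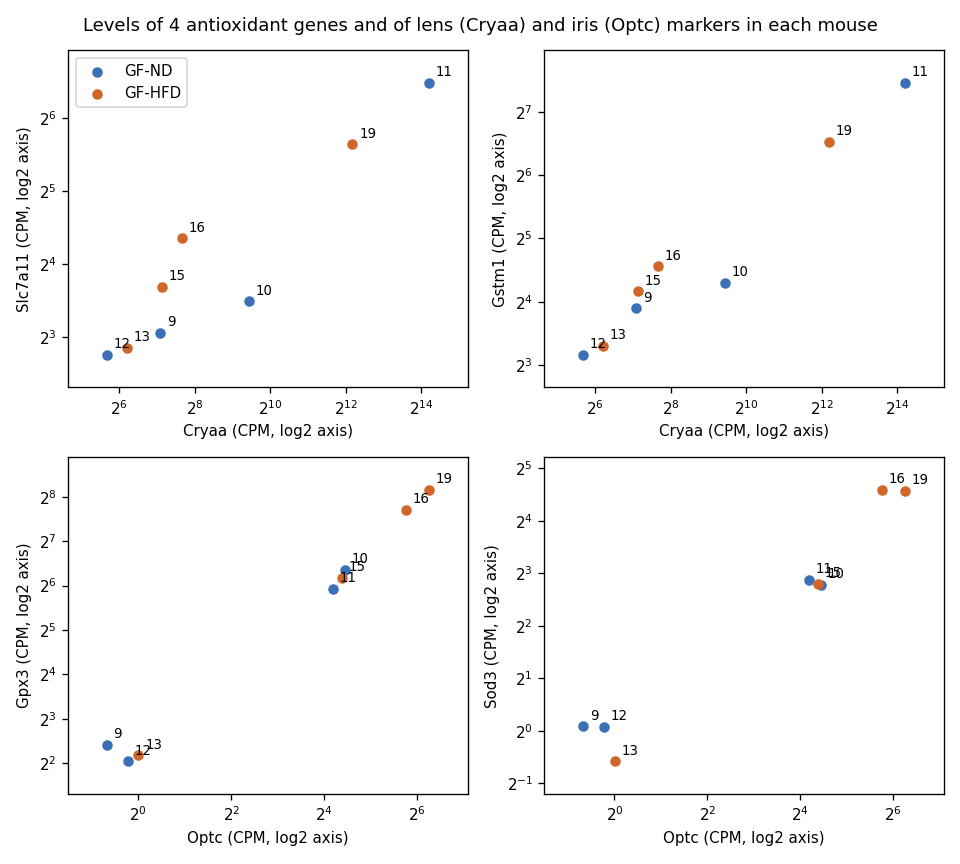
CPM of 4 antioxidant genes (y axes) against a lens marker, Cryaa, or a ciliary body and iris marker, Optc (x axes), in each GF-ND (blue) and GF-HFD (orange) mouse, labelled by number, on log2 axes. Slc7a11 and Gstm1 are highest in mice 11 and 19, as Cryaa is, and Gpx3 and Sod3 form the same 3 levels of mice as Optc.

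The glutathione S-transferase Gstm1, which joins glutathione to reactive compounds, was at 14.9, 19.7, 175 and 8.97 CPM in GF-ND and at 9.84, 17.9, 23.6 and 92.2 CPM in GF-HFD mice. Mouse 11 had 12.1 times the mean of the other GF-ND mice, the largest such ratio among the 34. The log2 fold change was -0.61 (SE 0.96) with all mice, 1.31 (SE 0.62) without mouse 11 and 0.24 without mice 11 and 19. Gsta4, the transferase that acts on the lipid breakdown product hydroxynonenal, ran from 10.02 to 29.1 CPM in GF-ND and from 13.8 to 22.5 CPM in GF-HFD mice (log2 fold change 0.16, SE 0.30, and 0.55, SE 0.19, without mouse 11). Gstp1 ran from 45.9 to 66.6 CPM and from 57.5 to 69.3 CPM (0.13, SE 0.12, and 0.21, SE 0.10, without mouse 11). Gstm1 and Gstp1 have close copies in the genome, and reads of such copies can be split between them or lost.

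The metallothionein genes Mt3, Mt2 and Mt1 lie in that order on the plus strand of chromosome 8, between 94152607 and 94180327. Mt1, made in most tissues, was at 23.4, 17.7, 45.8 and 25.3 CPM in GF-ND and at 23.5, 25.2, 29.8 and 29.1 CPM in GF-HFD mice. Mt2 was at 1.45, 0.739, 3.05 and 1.005 CPM and at 0.979, 1.401, 1.58 and 1.56 CPM, which is 30 to 128 counts per library. Mt3, the form of the nervous system, was at 9.31, 8.77, 14.9 and 7.92 CPM and at 10.3, 10.99, 9.64 and 10.5 CPM. In all 3 genes mouse 11 was the highest, with 2.07, 2.87 and 1.72 times the mean of the other GF-ND mice, and the groups overlapped. The log2 fold changes were -0.06 (SE 0.25) for Mt1, -0.18 (SE 0.41) for Mt2 and 0.02 (SE 0.19) for Mt3, and 0.28 (SE 0.13), 0.38 (SE 0.30) and 0.26 (SE 0.12) without mouse 11. The intervals with all mice run from -0.62 to 0.49 for Mt1 and from -0.42 to 0.45 for Mt3, so differences within these bounds could not be resolved with 4 mice a group.

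Promoters of some of the members that stood high in mouse 11 or low in mouse 12 are shown here. RefSeq windows (GRCm38.p6) from 250 bases before to 50 after the start were at hand for 28 of the 34 genes, as 34 windows in all. The core of the antioxidant response element, TGACNNNGC, to which NRF2 and small MAF proteins bind, was searched on both strands and was in 8 of the 34 windows, against 12.4% of all 32851 windows. The core of the metal response element, TGCGCNC or TGCACNC, to which the zinc-dependent factor MTF1 binds, was in 10 of the 34, against 25.7% of all windows. A match is a stretch of letters and not a shown site, and distances are those of its leftmost base from the start. Each promoter shown holds the core that is marked in it. The windows of Cat, Gss, Gpx1, Txn1 and Prdx5, which were also highest in mouse 11, hold neither core. The part of these cores in the levels was not tested. The windows of Mt1 and Mt2 hold 3 and 4 metal response cores, and 1.97% of all windows hold 3 or more. Of these, 1 lies before the start in Mt1 and 3 in Mt2, which also holds the antioxidant core 79 bases before it. The other cores of the Mt1 window lie 2 and 20 bases after the RefSeq start used here. Mt1 has 3 annotated transcripts, and a start further along would put more cores before it. The window of Gclm also holds 3 metal response cores, and an antioxidant core 134 bases before its start overlaps 1 of them. These are the 3 member windows with 3 or more, and that of Mt3 holds 1. The 250 bases before the start follow, 5′ to 3′ on the gene's strand, with the metal response core in capitals for Mt1 and Mt2 and the antioxidant core in capitals for Prdx1, Gclm and G6pdx.
Mt1, chr8:94178839-94179088, plus strand: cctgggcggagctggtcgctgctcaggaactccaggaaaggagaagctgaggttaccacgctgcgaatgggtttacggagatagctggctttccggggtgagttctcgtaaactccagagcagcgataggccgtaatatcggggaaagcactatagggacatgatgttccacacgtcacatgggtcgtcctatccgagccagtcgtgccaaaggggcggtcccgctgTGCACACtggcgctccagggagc
Mt2, chr8:94172368-94172617, plus strand: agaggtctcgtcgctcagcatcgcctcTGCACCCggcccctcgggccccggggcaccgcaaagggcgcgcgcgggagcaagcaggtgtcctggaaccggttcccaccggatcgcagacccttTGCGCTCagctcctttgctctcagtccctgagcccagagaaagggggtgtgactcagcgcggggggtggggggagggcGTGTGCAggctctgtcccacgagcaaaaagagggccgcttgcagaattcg
Prdx1, chr4:116685349-116685598, plus strand: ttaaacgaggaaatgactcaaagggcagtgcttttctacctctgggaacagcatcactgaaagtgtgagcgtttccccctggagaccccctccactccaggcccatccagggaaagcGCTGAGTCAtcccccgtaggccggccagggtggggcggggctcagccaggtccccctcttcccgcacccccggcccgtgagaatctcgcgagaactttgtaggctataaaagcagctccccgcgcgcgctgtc
Gclm, chr3:122245307-122245556, plus strand: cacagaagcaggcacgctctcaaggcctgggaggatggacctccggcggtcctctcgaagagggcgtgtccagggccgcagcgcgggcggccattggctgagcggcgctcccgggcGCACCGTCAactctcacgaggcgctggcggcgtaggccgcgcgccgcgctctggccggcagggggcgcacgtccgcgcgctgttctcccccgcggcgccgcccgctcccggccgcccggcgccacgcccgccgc
G6pdx, chrX:74428881-74429130, minus strand: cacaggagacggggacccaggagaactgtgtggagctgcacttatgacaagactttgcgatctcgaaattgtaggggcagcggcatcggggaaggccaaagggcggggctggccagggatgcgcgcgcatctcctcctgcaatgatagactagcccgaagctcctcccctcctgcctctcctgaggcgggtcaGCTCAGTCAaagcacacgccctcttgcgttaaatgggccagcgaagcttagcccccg

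The windows of Nqo1 and Slc7a11, which stood furthest above the other GF-ND mice in mouse 11 beside Gstm1, hold no antioxidant core in these 300 bases.

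Among 103 other genes of the same pathways, listed from general knowledge, 101 were tested, and 0 passed at an adjusted p under 0.05. At an unadjusted p under 0.05, 4 were higher in GF-HFD retinas (Me1, Nxnl1, Bach1 and Chac1) and 1 lower (Mafg), against 7.38% of all genes in either direction. The median log2 fold change of the 101 was 0.11, and 71 had higher fitted levels, against 46.3% of all genes. Every GF-HFD mouse lay above every GF-ND mouse in 2 of the 101, Me1 and Nxnl1, and the reverse held in 0. Over all genes, 4.83% kept the groups apart in either direction. Malic enzyme (Me1), another source of NADPH, was at 174, 148, 151 and 158 CPM in GF-ND and at 181, 216, 195 and 178 CPM in GF-HFD mice, and the groups did not overlap. Its log2 fold change was 0.29 (SE 0.09, adjusted p = 0.649) and 0.27 (SE 0.09) without mouse 11. Nxnl1, the rod-derived cone viability factor related to thioredoxin, was at 285, 286, 200 and 289 CPM in GF-ND and at 343, 354, 334 and 299 CPM in GF-HFD mice. It too kept the groups apart (log2 fold change 0.33, SE 0.12), and was lowest in mouse 11, where rod markers were also lowest at 10.5 log2 CPM against 11.04 to 11.5. All 18 genes of the rod list had higher fitted levels with the high-fat diet, at a median log2 fold change of 0.33. Without mouse 11 that median was 0.21, and Nxnl1 was at 0.22 (SE 0.08). The part of rods in the level of Nxnl1 was not tested. Bach1, which competes with NRF2 for its sites, had a log2 fold change of 0.25 (SE 0.10), Chac1, which degrades glutathione, 0.50 (SE 0.20), and Mafg, a partner of both, -0.38 (SE 0.15).

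Some of the most abundant genes of the pathway lists were also highest in mouse 11, and others had a narrow range. Of all genes, 46.3% had higher fitted levels with the high-fat diet. Among the 11 regulators and partners of NRF2, of which 7 had higher fitted levels with the high-fat diet, Gsk3b, a kinase, and Cul3, the ligase scaffold that works with Keap1, ran from 252 to 315 CPM and from 320 to 350 CPM in GF-ND mice and from 294 to 346 CPM and from 344 to 386 CPM in GF-HFD mice. Of 17 other NRF2 targets 13 were higher, and Tkt, a transketolase of the pentose phosphate pathway, was at 181, 197, 535 and 148 CPM in GF-ND and at 204, 227, 222 and 324 CPM in GF-HFD mice, highest in mice 11 and 19. Of 16 other glutathione enzymes 11 were higher, and Glo1, which detoxifies methylglyoxal with glutathione, ran from 153 to 191 CPM and from 176 to 200.3 CPM. Sesn3, a sestrin, was at 263, 254, 539.5 and 273 CPM in GF-ND and at 290, 286, 303 and 326 CPM in GF-HFD mice, with mouse 11 at 2.05 times the mean of the other GF-ND mice. Ceruloplasmin (Cp), the copper-carrying ferroxidase, had 307 CPM in mouse 11 and 316 CPM in mouse 19 against 157 to 231 CPM in the rest. The glucocorticoid receptor Nr3c1 ran from 98.3 to 117 CPM and from 114 to 123 CPM. None of these 7 genes had an unadjusted p under 0.05 over the 8 mice.

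Without mouse 11, 41 of the 101 were higher and 3 lower at an unadjusted p under 0.05, against 12.1% of all genes higher and 23.0% in either direction. At an adjusted p under 0.05, 2 of the 101 passed, which is near the 1.60% of all genes. These were Sqstm1, an autophagy receptor that sequesters Keap1, and Fth1, the heavy chain of the iron store ferritin. Sqstm1 was at 165, 159, 261 and 148 CPM in GF-ND and at 202, 202, 206 and 204 CPM in GF-HFD mice. Fth1 was at 270, 293, 584 and 219 CPM and at 400, 355, 397 and 372 CPM. In both genes mouse 11 lay above all GF-HFD mice and the other 3 GF-ND mice below all of them. The log2 fold changes without mouse 11 were 0.38 (SE 0.07, adjusted p = 0.0311) and 0.55 (SE 0.10, adjusted p = 0.0323), and with it 0.15 (SE 0.16) and 0.16 (SE 0.26). Heme oxygenase 1 (Hmox1), an NRF2 target that breaks down heme, had the largest ratio of mouse 11 to the mean CPM of the other GF-ND mice among the members and these genes, though on the mean log2 scale Gstm2 was further above them. It was at 1.69, 2.07, 56.7 and 1.87 CPM in GF-ND and at 2.65, 3.04, 3.94 and 4.02 CPM in GF-HFD mice, with 30.3 times the mean of the other GF-ND mice in mouse 11. Hmox1, Gstm2 and Sqstm1 were singled out after their values were seen.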

How the data were processed

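Whole-retina RNA of 8 mice was sequenced, 1 library per mouse. The authors aligned read pairs of 100 bases to GRCm38 (mm10) with STAR 2.4.2 and summed reads over gene symbols using featureCounts (Subread 1.4.6-p1). The deposited values are raw counts, unscaled and unfiltered, and the strand setting is not given in the sources used here. Libraries held 39258006 to 44357518 counts. Low counts were mostly even (1.91 to 2.36 even values for each odd one from 1 to 12), so small counts may be less precise than their size implies.

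Genes reaching 10 counts summed over the 8 libraries were scaled by TMM and tested between diets with the quasi-likelihood test of edgeR 4.0.16 in R 4.3.3, with Benjamini-Hochberg adjustment over all genes tested. A prior count of 2 was added for log2 CPM. Two-sided exact permutation tests of log2 CPM used 70 arrangements for 4 against 4 mice. Groups are called apart where every mouse of a diet lies above every mouse of the other. Positions, exon lengths and overlapping genes came from GENCODE vM21, which may differ from the release used for counting, and promoter windows from RefSeq (GRCm38.p6). Alternatives were other scalings and filters, DESeq2 1.42.0, limma-voom (limma 3.58.1), the lens list as a covariate and left-out mice. The tests were tried on simulated data. Members and gene lists were chosen with earlier results of these data known. All 34 members were named, other pathway genes where they had an unadjusted p under 0.05 or were among the most abundant of their list, and further genes are said to have been chosen after their values were seen.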

Additional observations from a re-analysis of the deposited data

Results flagged for a closer look

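In 3 of the 68 sets of 4 mice checked, 34 genes in each diet, 1 mouse lay far from the other 3 on the log2 CPM scale. The measure was Dixon's gap ratio at its 95% limit, which chance passes in about 1 in 20 sets. Gclm in GF-ND mouse 11 was at 92.8 CPM against 40.7 to 45.1 CPM in the other GF-ND mice, a ratio of 0.875. Cat in the same mouse was at 64.3 CPM against 22.5 to 26.0 CPM, a ratio of 0.860. G6pdx in GF-ND mouse 12 was at 58.5 CPM against 70.3 to 71.5 CPM, a ratio of 0.921.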

How the results depend on the processing

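In none of the 20 alternatives did a member pass at an adjusted p under 0.05. Over all genes, edgeR called 0 with all mice and 1985 at an unadjusted p under 0.05. DESeq2 called 53, the lens covariate gave 2, and leaving out mice 11 and 19 gave 55. Leaving out 1 mouse gave 0 to 421, the 421 without mouse 11 and 0 without any other. Members at an unadjusted p under 0.05 numbered 2 with all mice, 1 with filterByExpr or limma-voom, 13 with the lens covariate, 14 without mice 11 and 19, 9 without mice 11, 16 and 19 (chosen after seeing the data), and 1 to 17 with 1 mouse left out. Gss was no longer among them without mouse 11, 13, 15 or 16, and the count was 1 without mouse 15 or 16 and 17 without mouse 11. Of all genes, 7.38% passed at that level with all mice, 14.5% with the lens covariate and 19.3% without mice 11 and 19. The share was 15.6% without mice 11, 16 and 19, and 4.62 to 23.0% with 1 mouse left out. Members with the groups apart numbered 2 with all mice, 1 with scaling by library totals, 12 without mice 11 and 19, 14 without mice 11, 16 and 19, and 2 to 10 with 1 mouse left out, with 5 without mouse 19 and 10 without mouse 11. Of all genes, 4.83% kept the groups apart with all mice. Without mouse 11, 2548 of 26338 genes were apart as higher and 2772 as lower in GF-HFD mice. Without mice 11 and 19, 3102 of 25720 were apart as higher and 3278 as lower. Groups are apart more often with fewer mice. This share was not counted for the other settings, so the member counts there cannot be read as a result about the members. Other pathway genes at an unadjusted p under 0.05 numbered 5 with all mice, 3 with library totals, 2 with the filter of 10 CPM in 4 libraries, 25 with the lens covariate, 30 without mice 11 and 19, 17 without mice 11, 16 and 19, and 2 to 44 with 1 mouse left out, with 44 without mouse 11, 3 without mouse 10 or 19 and 2 without mouse 15 or 16. The median log2 fold change of the members ran from 0.01 without mouse 12 to 0.26 without mouse 11. The causes of these shifts were not tested.

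The direction of 18 members held in every alternative that tested them, Gss, Gsr and G6pdx among them, and that of 16 turned in at least 1. With limma-voom, Cat was at a log2 fold change of 0.029, Mt1 at 0.022, Mt2 at 0.0067, Slc7a11 at 0.18 and Sod1 at 0.022. With the lens covariate, Cat was at 0.16, Gclm at 0.084, Gstm1 at 0.37, Mt1 at 0.084, Mt2 at 0.086, Slc7a11 at 0.59 and Sod1 at 0.077. Without mice 11 and 19, Cat was at 0.38, Gclc at 0.011, Gclm at 0.24, Gstm1 at 0.24, Mt1 at 0.24, Mt2 at 0.31, Slc7a11 at 0.62 and Sod1 at 0.15. Without mice 11, 16 and 19, Cat was at 0.35, Gclm at 0.16, Mt1 at 0.15, Mt2 at 0.17, Slc7a11 at 0.21, Sod1 at 0.17 and Prdx6 at -0.0011. With library totals, Mt3 was at -0.016 and Prdx5 at -0.0010, and with the filter of 10 CPM in 4 libraries Mt3 was at -0.037, Prdx5 at -0.022 and Prdx6 at -0.010. With 1 mouse left out, the lowest and highest values were -0.27 and 0.39 for Cat, -0.20 and 0.056 for Gclc, -0.22 and 0.28 for Gclm, -0.046 and 0.39 for Gpx1, -0.022 and 0.55 for Gsta4, -1.68 and 1.31 for Gstm1, -0.24 and 0.28 for Mt1, -0.42 and 0.38 for Mt2, and -0.088 and 0.26 for Mt3. They were -0.15 and 1.13 for Nqo1, -0.043 and 0.37 for Prdx1, -0.027 and 0.31 for Prdx4, -0.11 and 0.33 for Prdx5, -0.081 and 0.23 for Prdx6, -1.10 and 1.37 for Slc7a11, and -0.14 and 0.18 for Sod1. In each of the 16 the highest value was without mouse 11.

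No paired analysis was possible because the diets share no replicate numbers. With 4 mice a diet, the spread between mice limits the intervals. Counting error matters most for Sod3, Mt2 and Nqo1, whose lowest libraries held 28, 30 and 85 counts.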
